A study of Homo sapiens with 9 samples.

Results

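Interferon-stimulated genes are the antiviral and immune genes that cells switch on when interferon reaches them, and 43 of them, including 4 genes for guanylate-binding proteins (GBPs), are described here. They were chosen by symbol, with earlier results of these data known. A gene entered the tests if any of its probes stood above background, that is, had a detection p under 0.05, on 3 or more of the 9 arrays, and the brightest such probe by mean stood for it. In this way 42 of the 43 genes were tested, among 12698 genes in all. STAT2 was not analysed here because the probe annotation used names no probe for it. Of the 42 genes, 41 were above background on all 9 arrays. MX2, the exception, stood above background on 2 of 3 ARID1A-induced arrays, 1 of 3 GSK126 arrays and 3 of 3 DMSO arrays.

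RNA came from OVISE, an established clear cell ovarian carcinoma line with mutated ARID1A, which encodes a DNA-binding part of SWI/SNF chromatin remodellers, grown in Matrigel. In 3 samples 1 µg/mL doxycycline switched on wild-type ARID1A, 3 samples received 5 µM GSK126, an inhibitor of the histone methyltransferase EZH2, and 3 received the vehicle DMSO. Every group has 1 sample in each of the labelled batches 1, 2 and 3, and all 9 are 1 cell line. The labels do not say whether the GSK126 and DMSO cells carry the inducible construct or whether the replicates were separate cultures, so the spread that the p-values rest on may be technical only. Only the ARID1A group received doxycycline, so the effects of the drug and of ARID1A cannot be told apart. If only that group carries the construct, the effect of carrying it cannot be told apart from them either.

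Type I and type III interferons act through receptors coupled to JAK kinases, which phosphorylate transcription factors such as STAT2. With IRF9 these bind the interferon-stimulated response element (ISRE). Type II interferon, interferon gamma, acts through the gamma-activated site (GAS), and it induces IRF1 and the GBPs strongly. IRF1 in turn is a transcription factor that binds ISRE-like sequences. The induced proteins detect foreign nucleic acid, block translation of viral RNA, attach the ubiquitin-like protein ISG15 to other proteins or trap virus particles in membranes, and carcinoma lines can express many of them without added interferon.

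The promoters printed next were chosen to show the sequences through which these genes are usually described as responding. They belong to GBP1 and GBP4, which fell after ARID1A induction, and to IFIT1 and ISG15, which did not pass. A further promoter is that of IRF1, which was called lower only in the model with batch as a block. Each runs from 250 bases before to 50 bases after the gene's start, 5′ to 3′, in RefSeq's sequence of GRCh38.p14, and capitals mark an ISRE core (GAAA, any 2 bases, then GAAA, on either strand) or a GAS (TTCNNNGAA, which reads alike on both strands).
GBP1: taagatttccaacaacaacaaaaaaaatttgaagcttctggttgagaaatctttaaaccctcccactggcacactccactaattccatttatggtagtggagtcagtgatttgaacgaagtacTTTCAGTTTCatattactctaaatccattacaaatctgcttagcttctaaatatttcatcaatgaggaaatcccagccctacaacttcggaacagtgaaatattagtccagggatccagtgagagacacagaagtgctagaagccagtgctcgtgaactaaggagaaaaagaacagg
GBP4: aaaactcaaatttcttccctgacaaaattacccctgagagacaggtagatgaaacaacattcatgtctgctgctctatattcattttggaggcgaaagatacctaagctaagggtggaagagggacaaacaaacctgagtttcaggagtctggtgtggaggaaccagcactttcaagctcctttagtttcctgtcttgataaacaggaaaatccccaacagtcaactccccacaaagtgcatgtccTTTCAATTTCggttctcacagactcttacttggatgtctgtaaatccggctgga
IRF1: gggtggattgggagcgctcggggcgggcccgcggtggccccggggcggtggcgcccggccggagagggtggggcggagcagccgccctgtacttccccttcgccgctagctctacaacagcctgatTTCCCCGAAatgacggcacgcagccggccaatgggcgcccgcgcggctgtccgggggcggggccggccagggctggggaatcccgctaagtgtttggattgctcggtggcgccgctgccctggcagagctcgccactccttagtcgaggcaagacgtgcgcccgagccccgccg
IFIT1: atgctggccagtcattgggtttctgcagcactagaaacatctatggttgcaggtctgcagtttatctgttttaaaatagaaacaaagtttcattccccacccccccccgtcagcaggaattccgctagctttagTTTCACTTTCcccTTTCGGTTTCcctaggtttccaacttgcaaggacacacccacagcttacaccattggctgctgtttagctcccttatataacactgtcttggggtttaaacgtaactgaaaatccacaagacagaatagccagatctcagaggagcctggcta
ISG15: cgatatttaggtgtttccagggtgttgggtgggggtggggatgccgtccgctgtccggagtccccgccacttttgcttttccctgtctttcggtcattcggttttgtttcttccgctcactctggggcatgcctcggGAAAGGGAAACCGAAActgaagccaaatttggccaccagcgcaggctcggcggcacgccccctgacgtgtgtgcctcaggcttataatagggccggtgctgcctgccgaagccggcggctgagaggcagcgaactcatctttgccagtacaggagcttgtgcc
They lie at chr1:89065159-89065458 (minus strand) for GBP1, chr1:89198893-89199192 (minus strand) for GBP4, chr5:132490724-132491023 (minus strand) for IRF1, chr10:89392373-89392672 (plus strand) for IFIT1 and chr1:1013247-1013546 (plus strand) for ISG15. The ISRE core starts 127 bases before the start of GBP1 and 4 bases before that of GBP4. In the IRF1 window the search found a GAS 124 bases before the start and no ISRE core. IFIT1 has ISRE cores 116 and 103 bases before its start, and in ISG15 the cores 113 and 107 bases before the start overlap. Promoter sequence was found for 34 of the 43 genes; 22 of these (64.7%) hold an ISRE core, against 3.65% of all 27305 promoters, and 10 (29.4%) hold a GAS, against 7.88%. A match describes the letters and is not evidence of a bound factor.

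All values are normalised log2 probe intensities, so they compare arrays for 1 gene and not genes with each other. Median raw intensity lay between 316.645 and 348.539 and 21317 to 22517 of 47323 probes had a detection p below 0.05. The number of arrays limits the precision. ARID1A probe ILMN_1734496 was above background on each of the 3 induced arrays, at 8.67 ± 0.38 (SD, n = 3), and on no GSK126 or DMSO array. A further ARID1A probe, ILMN_1797341, averaged 10.94 ± 0.10 in induced cells and 11.07 ± 0.06 in DMSO (SD, n = 3 each) and did not pass (limma adjusted p = 0.507). Of 8 clear cell carcinoma and epithelial markers with a probe, 7, among them PAX8, NAPSA and EPCAM, were above background on all 9 arrays, while KRT18 was not above background on any. KRT8, an epithelial keratin, was higher in ARID1A-induced cells by 0.46 (limma adjusted p = 0.0295). The endothelial marker VWF was above background on the 3 ARID1A-induced arrays and on no GSK126 or DMSO array, so it entered the tests only through the group where it is high. It was at least 1.43-fold higher in ARID1A-induced cells than in DMSO. For this bound each DMSO array took the higher of its own VWF signal and its lowest signal among probes above background. No p-value is given, because VWF was not above background in DMSO. The other 4 endothelial markers were not above background on any array. Of 12 leukocyte markers with a probe, CD68 and IL3RA were above background on all 9 arrays, CD14 on 8 and LYZ on 7. MS4A1 and CSF1R were so on 2, NCAM1 and CLEC4C on 1, and PTPRC, CD3D, CD3E and NKG7 on none. The summed linear level of CD68, IL3RA, CD14 and LYZ, the 4 that were tested, ran from 3200 to 3671 in induced cells, 3017 to 3398 with GSK126 and 3213 to 3576 in DMSO, and none was called. All 9 samples are labelled as 1 cell line, and whether any of this signal came from other cells was not tested.

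The first comparison asks how restoring ARID1A in the mutant cells changes these genes. GBP1 and GBP4, GTPases that coat intracellular bacteria and viral compartments, fell in cells with induced ARID1A. IRF1 and XAF1, an antagonist of the apoptosis inhibitor XIAP, were called lower only in the model with batch as a block. No member was called higher. The other members did not pass in either model, among them the IFIT, MX and ISG15 genes usually taken as markers of type I interferon.

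GBP1 read 10.99, 10.89 and 10.90 in batches 1 to 3 of ARID1A-induced cells, against 11.62, 11.48 and 11.28 in DMSO. The groups did not overlap, and the induced arrays lay closer together than the DMSO arrays. GBP1 fell by 0.53 on the log2 scale (SE 0.10, limma adjusted p = 0.0323), so that DMSO cells had 1.45-fold more. Its other probe stood at −0.49 and did not pass when all probes were adjusted together (limma adjusted p = 0.118; 0.041 in the block model).

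GBP4 read 11.36, 11.20 and 11.44 in ARID1A-induced cells, against 12.11, 11.77 and 12.01 in DMSO. Here too every induced array lay below every DMSO array. GBP4 fell by 0.63 (SE 0.14, limma adjusted p = 0.0472), with −0.74, −0.57 and −0.57 in batches 1 to 3.

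GBP3 and GBP2 lie beside GBP1 and GBP4 on chromosome 1, in the order GBP3, GBP1, GBP2, GBP4 with at most 1 other protein-coding gene between neighbours in RefSeq. GBP3 read 10.69, 10.72 and 10.75 in ARID1A-induced cells, against 10.93, 10.84 and 10.95 in DMSO. These groups did not overlap, but the difference of −0.19 (SE 0.09) did not pass (limma adjusted p = 0.285). GBP2 read 9.25, 9.12 and 9.71 in ARID1A-induced cells, against 9.75, 9.07 and 9.59 in DMSO. Its groups overlapped and its difference of −0.11 (SE 0.22) did not pass (limma adjusted p = 0.83). Whether probes of these related genes bind each other's transcripts was not tested.

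The calls of both GBPs were near the threshold, while their sizes moved little. Without any 1 array, the difference of GBP1 lay between −0.62 and −0.45 with an adjusted p of 0.036 to 0.117, and that of GBP4 between −0.73 and −0.56 with an adjusted p of 0.0338 to 0.164. The call of GBP1 was lost in 5 of these 9 settings, without DMSO replicates 1 or 2 or any induced array, and that of GBP4 in 8, all but the one without GSK126 replicate 1.

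**Figure D1:**
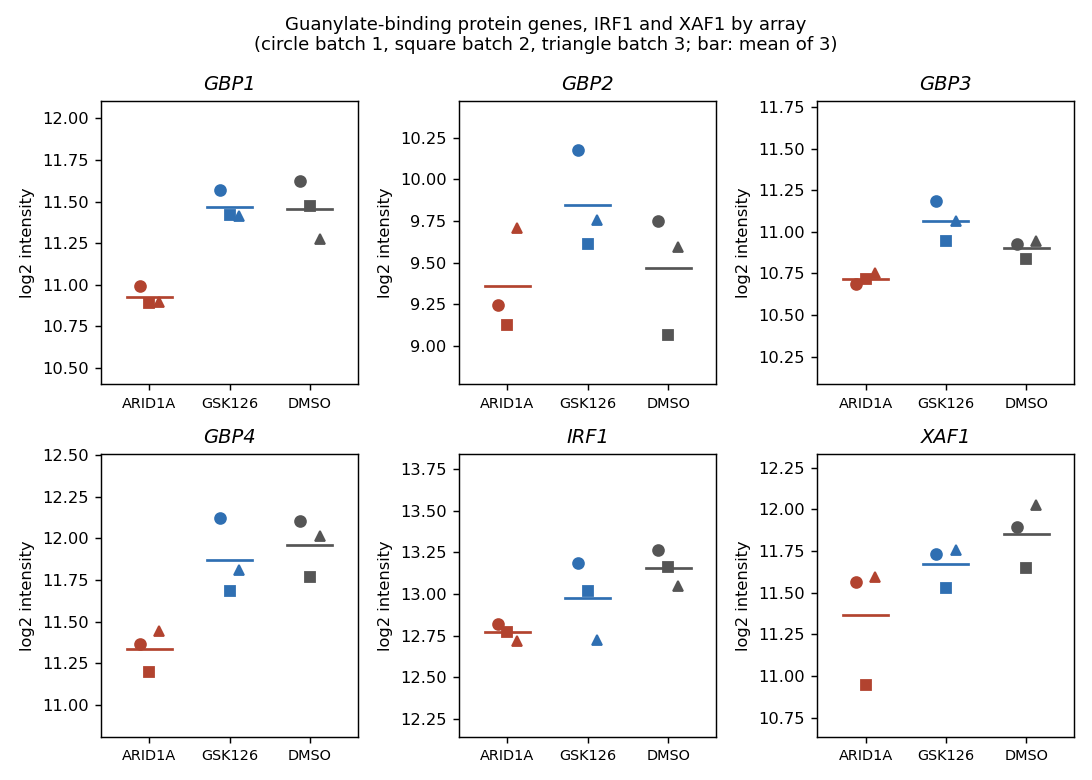
Normalised log2 intensity (vertical axis, 1.7 log2 units in every panel) of GBP1, GBP2, GBP3, GBP4, IRF1 and XAF1 in each of 9 arrays, with groups along the horizontal axis, 1 point per array shaped by batch and a bar for the mean of 3. In GBP1, GBP4, IRF1 and XAF1 all 3 arrays with induced ARID1A lie below all 3 DMSO arrays, as they do in GBP3, whereas in these 4 genes the GSK126 arrays overlap DMSO.

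Among the transcription factors, IRF1 read 12.82, 12.77 and 12.72 in ARID1A-induced cells, against 13.26, 13.16 and 13.05 in DMSO. The groups did not overlap, and the difference was −0.39 (SE 0.12, limma adjusted p = 0.126; 0.0487 in the block model). IRF7, which drives interferon alpha genes, read 9.71, 9.30 and 9.93 in ARID1A-induced cells, against 9.94, 9.97 and 9.90 in DMSO. Its groups overlapped through batch 3, and it stood at −0.29 (SE 0.18, limma adjusted p = 0.41), with its second probe at 0.05. IRF9, a DNA-binding partner of STAT2, read 13.46, 12.96 and 13.58 in ARID1A-induced cells, against 13.27, 13.31 and 13.43 in DMSO. The induced arrays lay on both sides of the DMSO arrays, and the 95% interval of the difference ran from −0.41 to 0.41 (limma adjusted p = 0.999).

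XAF1 read 11.56, 10.95 and 11.60 in ARID1A-induced cells, against 11.89, 11.65 and 12.02 in DMSO. The array of batch 2 was lowest in both groups. The difference was −0.49 (SE 0.18, limma adjusted p = 0.181; 0.0427 in the block model), and the second XAF1 probe stood at −0.61. Without any 1 array and without the block, XAF1 lay between −0.60 and −0.27 with an adjusted p of 0.173 to 0.361, and IRF1 between −0.44 and −0.34 with 0.0736 to 0.319. The value of −0.27 came without replicate 2 of the ARID1A-induced cells. In the block model both calls were lost without that replicate (limma adjusted p = 0.093 for XAF1 and 0.126 for IRF1) and without GSK126 replicate 1 (0.0658 and 0.0583).

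The membrane proteins IFITM1, IFITM2 and IFITM3, which hinder the entry of enveloped viruses, lie together on chromosome 11 and stood at −0.90, −0.26 and −0.36. IFITM1 had the most negative value of the 42 genes and one of the wider errors. It read 12.02, 11.38 and 12.71 in ARID1A-induced cells, against 13.06, 12.51 and 13.23 in DMSO. The groups overlapped, and the difference did not pass (SE 0.31, limma adjusted p = 0.163). It was −0.57 without replicate 2 of the ARID1A-induced cells and ran to −1.23 without their replicate 3. BST2, tetherin, which holds budding virions at the surface, averaged 13.94 ± 0.10 in ARID1A-induced cells and 13.98 ± 0.01 in DMSO (SD, n = 3 each).

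OAS1, OAS2 and OAS3, which make the messenger that activates RNase L, are neighbours on chromosome 12 and stood at −0.31, −0.34 and −0.60. OAS3 read 12.41, 11.96 and 12.61 in ARID1A-induced cells, against 12.89, 12.92 and 12.95 in DMSO. The groups did not overlap, yet OAS3 did not pass (SE 0.18, limma adjusted p = 0.125). Its second probe stood at −0.59, close to the first. The other OAS2 probes were lower than the one used, at −0.88 (above background on 8 of 9 arrays), −0.44 and −0.58. Those of OAS1 stood at −0.38, −0.30 and −0.37, and none of these probes passed.

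IFIT proteins, which bind viral RNA and are encoded side by side on chromosome 10, ran from −0.37 for IFIT5 to 0.27 for IFIT2. The sensors ranged from −0.35 for the helicase DDX60 to 0.42 for IFI16, a DNA sensor, with 0.08 for DDX58, which encodes the RNA sensor RIG-I, and −0.27 for IFIH1, which encodes MDA5, a sensor of long double-stranded RNA. In the ISG15 system the values ran from −0.34 for the deconjugating protease USP18 to 0.38 for the ligase family member HERC6, with −0.06 for ISG15 itself and −0.32 for the conjugating enzyme UBE2L6. IFI6, a mitochondrial and endoplasmic reticulum protein, stood at −0.01, and SAMD9L, a relative of SAMD9, at −0.02.

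HERC6, IFIT2 and PARP9 were the members with positive values in all 3 batches, and none passed. In 21 members the values were negative in all 3 batches. Of all 12698 genes tested, 3043 were negative and 3070 positive in all 3 batches. HERC6 read 12.18, 11.97 and 12.25 in ARID1A-induced cells, against 11.65, 11.56 and 12.07 in DMSO, a difference of 0.38 (SE 0.20, limma adjusted p = 0.338). IFIT2 read 12.76, 12.40 and 12.92 in ARID1A-induced cells, against 12.64, 12.27 and 12.36 in DMSO, a difference of 0.27 (SE 0.16, limma adjusted p = 0.391). In both genes the lowest induced array lay below the highest DMSO array. PARP9, an ADP-ribosyltransferase family member, read 13.92, 13.87 and 14.11 in ARID1A-induced cells, against 13.77, 13.68 and 14.03 in DMSO. It stood at 0.14 (SE 0.13, limma adjusted p = 0.614) and its second probe at −0.16.

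The members were chosen with earlier results of these data known, so the shares of all genes beside their counts are a description and not a test. Counted together, 0 members were called higher and 2 of 42 lower, where 2.01% of all genes tested were called higher and 0.835% lower. With batch as a block 4 were lower (GBP1, GBP4, IRF1 and XAF1) and 0 higher, where 2.28% of all genes were lower and 3.82% higher. In 8 members the 3 induced arrays all lay below the 3 DMSO arrays, against 11.9% of all genes, and these were GBP1, GBP3, GBP4, IRF1, IFI35, ISG20, OAS3 and XAF1. In 0 members did they all lie above, against 13.3%. An unadjusted p below 0.05 was reached by 10 members, each lower in induced cells, against 8.71% of all genes for that direction.

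The median difference over the 42 members was −0.25, with 34 values negative and 8 positive, while the median over all genes was −0.00 with 50.6% negative. Within batches the members' median was −0.19 in batch 1, −0.40 in batch 2 and −0.05 in batch 3. Without replicate 2 of the ARID1A-induced cells it was −0.072, with 24 members negative, and that setting called 0 members. By role, the medians ran from −0.45 over the 6 IFI proteins and XAF1 and −0.36 over the 4 GBPs to 0.08 over MX1, MX2 and TRIM22. Without replicate 2 of the ARID1A-induced cells the median was −0.08 over the IFI proteins and XAF1, with 2 of the 6 values positive, −0.35 over the GBPs and 0.17 over MX1, MX2 and TRIM22.

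**Figure D2:**
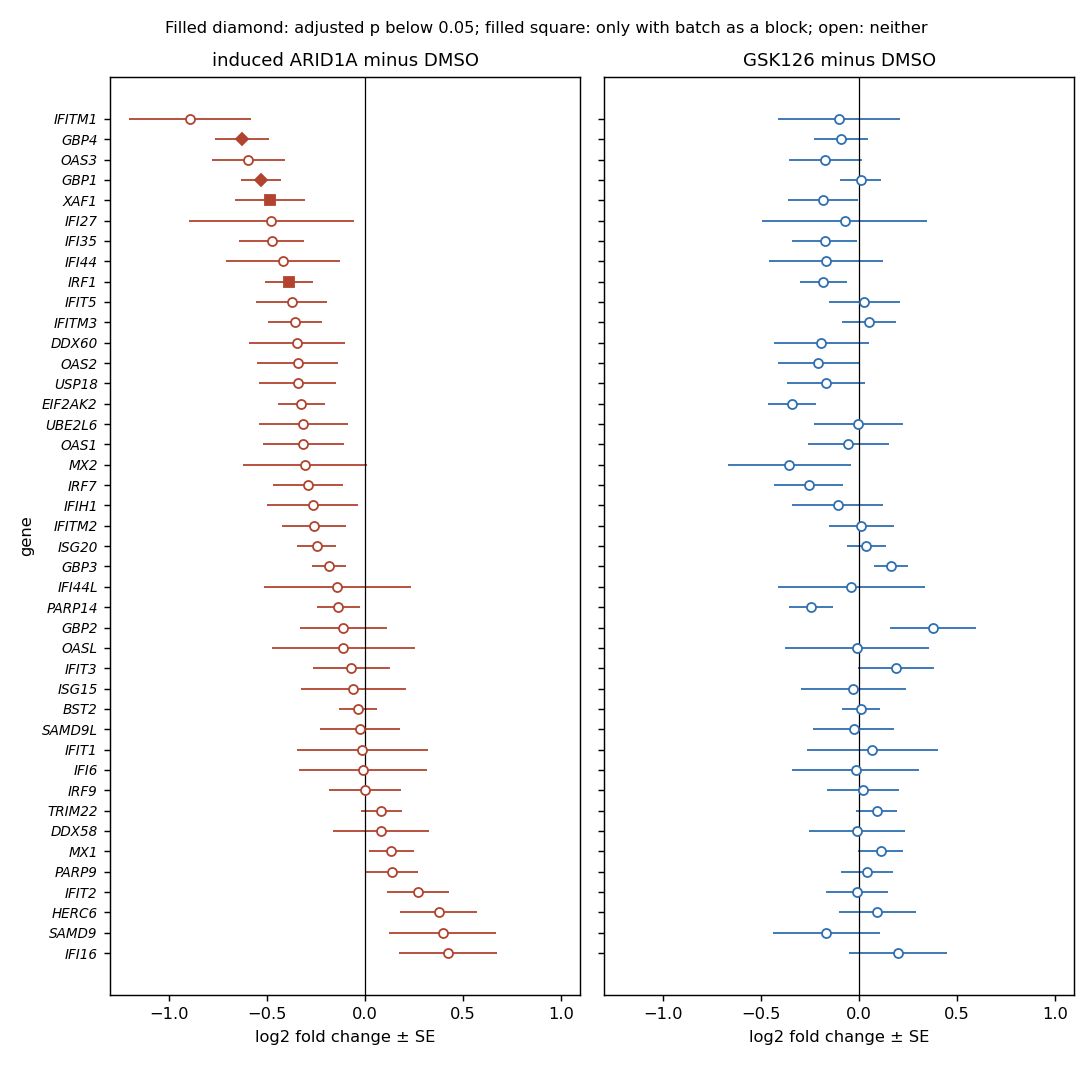
Log2 fold change (horizontal axis) with its standard error for each of 42 genes (vertical axis, ordered by the left panel), for induced ARID1A minus DMSO on the left and GSK126 minus DMSO on the right, with 3 arrays in each group. GBP1 and GBP4 carry filled diamonds and IRF1 and XAF1 filled squares on the left, and every marker on the right is open.

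The second comparison asks what inhibiting EZH2 does to the same genes. No member was called with GSK126. This comparison and the first share the DMSO arrays. GBP1 read 11.57, 11.42 and 11.41 with GSK126, against 11.62, 11.48 and 11.28 in DMSO. Its difference was 0.01, with a 95% interval from −0.22 to 0.24 (limma adjusted p = 0.989). GBP4 read 12.12, 11.68 and 11.81 with GSK126, against 12.11, 11.77 and 12.01 in DMSO. Its difference was −0.09, with an interval from −0.40 to 0.22.

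GBP2 had the largest positive value, at 0.38 (SE 0.22, limma adjusted p = 0.636), and read 10.18, 9.61 and 9.75 with GSK126, against 9.75, 9.07 and 9.59 in DMSO. GBP3 read 11.19, 10.95 and 11.06 with GSK126, against 10.93, 10.84 and 10.95 in DMSO. Its 3 GSK126 arrays lay above the 3 DMSO arrays before rounding, and it stood at 0.16 (SE 0.09, limma adjusted p = 0.613). IRF1 read 13.18, 13.02 and 12.73 with GSK126 and differed by −0.18 (interval −0.45 to 0.09). IRF7 read 9.36, 9.92 and 9.76 with GSK126 and differed by −0.26 (SE 0.18, limma adjusted p = 0.699), with overlap of the groups in both genes. IRF9 read 13.03, 13.57 and 13.47 with GSK126, on both sides of its DMSO arrays, and differed by 0.02 (SE 0.18, limma adjusted p = 0.983). EIF2AK2, the kinase PKR that shuts down translation on sensing double-stranded RNA, read 13.66, 13.76 and 13.74 with GSK126, against 14.02, 13.90 and 14.26 in DMSO. The groups did not overlap, and the difference of −0.34 (SE 0.12) did not pass (limma adjusted p = 0.459). After ARID1A induction EIF2AK2 stood nearly as low against DMSO, at −0.33 (SE 0.12, limma adjusted p = 0.185). Between GSK126 and induced ARID1A it differed by −0.02. PARP14, an ADP-ribosyltransferase, read 13.32, 13.55 and 13.62 with GSK126, against 13.70, 13.70 and 13.82 in DMSO, a difference of −0.24 (SE 0.11, limma adjusted p = 0.539). Its groups did not overlap, while XAF1, at −0.18 (SE 0.18, limma adjusted p = 0.783), overlapped with 11.73, 11.53 and 11.75 under GSK126. MX1, a GTPase that blocks influenza virus, read 8.92, 8.85 and 8.89 with GSK126, against 8.82, 8.66 and 8.85 in DMSO, a difference of 0.11 (SE 0.11, limma adjusted p = 0.799). TRIM22, an antiviral ubiquitin ligase, read 13.43, 13.38 and 13.39 with GSK126, against 13.31, 13.25 and 13.37 in DMSO, a difference of 0.09 (SE 0.10, limma adjusted p = 0.823). In both, the GSK126 arrays all lay above the DMSO arrays by small margins.

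In this comparison limma called 0 of 42 members and 0% of all genes, with or without the block. An unadjusted p below 0.05 was reached by 1 member, EIF2AK2, and by 2 with the block, against 9.33% and 13.7% of all genes. The 3 GSK126 arrays all lay above DMSO in 3 members (all genes 7.51%) and below in 2 (all genes 7.7%). The members' median was −0.02, and within batches 1 to 3 it was −0.29, 0.19 and −0.08, so the batches differed in direction. With equal medians in place of quantile normalisation the overall median was 0.04.

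The third comparison sets both treatments against each other, and it shares arrays with the first and the second. GBP1 was higher with GSK126 than with induced ARID1A by 0.54 (SE 0.10, limma adjusted p = 0.0303), a 1.45-fold difference, with 0.58, 0.53 and 0.52 in batches 1 to 3. GBP4 differed by 0.54 as well (SE 0.14, limma adjusted p = 0.0818; 0.0253 in the block model), and GBP3 by 0.35 (SE 0.09, 0.0769). For all 3 of these genes the GSK126 arrays lay above the ARID1A-induced arrays. GBP2 stood at 0.49 (limma adjusted p = 0.311), IRF1 at 0.21 (0.448) and IFITM1 at 0.79 (0.242), each with overlapping groups, as did IRF7 at 0.03 and IRF9 at 0.02.

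Here 1 of 42 members was called higher and 0 lower, where 0.953% of all genes were called higher and 1.54% lower, and 2 were higher and 0 lower with the block (all genes 1.81% and 2.36%). In 5 members, GBP1, GBP3, GBP4, IFITM3 and ISG20, the 3 GSK126 arrays all lay above the induced arrays (all genes 9.67%), and in 0 below (all genes 11.4%). At an unadjusted p below 0.05, 7 members were higher (all genes 7.71%) and 0 lower (all genes 8.75%). The most negative value was that of SAMD9, an antiviral translation inhibitor, at −0.56 (limma adjusted p = 0.351), whose batches differed in sign. Values were negative in all 3 batches in IFIT2 and HERC6, both at −0.28, and PARP9, at −0.10, and none passed (limma adjusted p = 0.426, 0.533 and 0.773). The second PARP9 probe stood at 0.12. In 11 members the values were positive in all 3 batches. Of all 12698 genes tested, 2764 were negative and 2437 positive in all 3 batches. The median over the members was 0.15, and within batches it was −0.19, 0.57 and −0.04. Without any 1 array GBP1 kept its call in 2 of 9 settings, with an adjusted p of 0.0291 to 0.106 and a difference between 0.49 and 0.57. The members' median was −0.074 without replicate 2 of the ARID1A-induced cells, 0.32 without their replicate 3 and 0.28 without replicate 1 of the GSK126 cells.

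**Figure D3:**
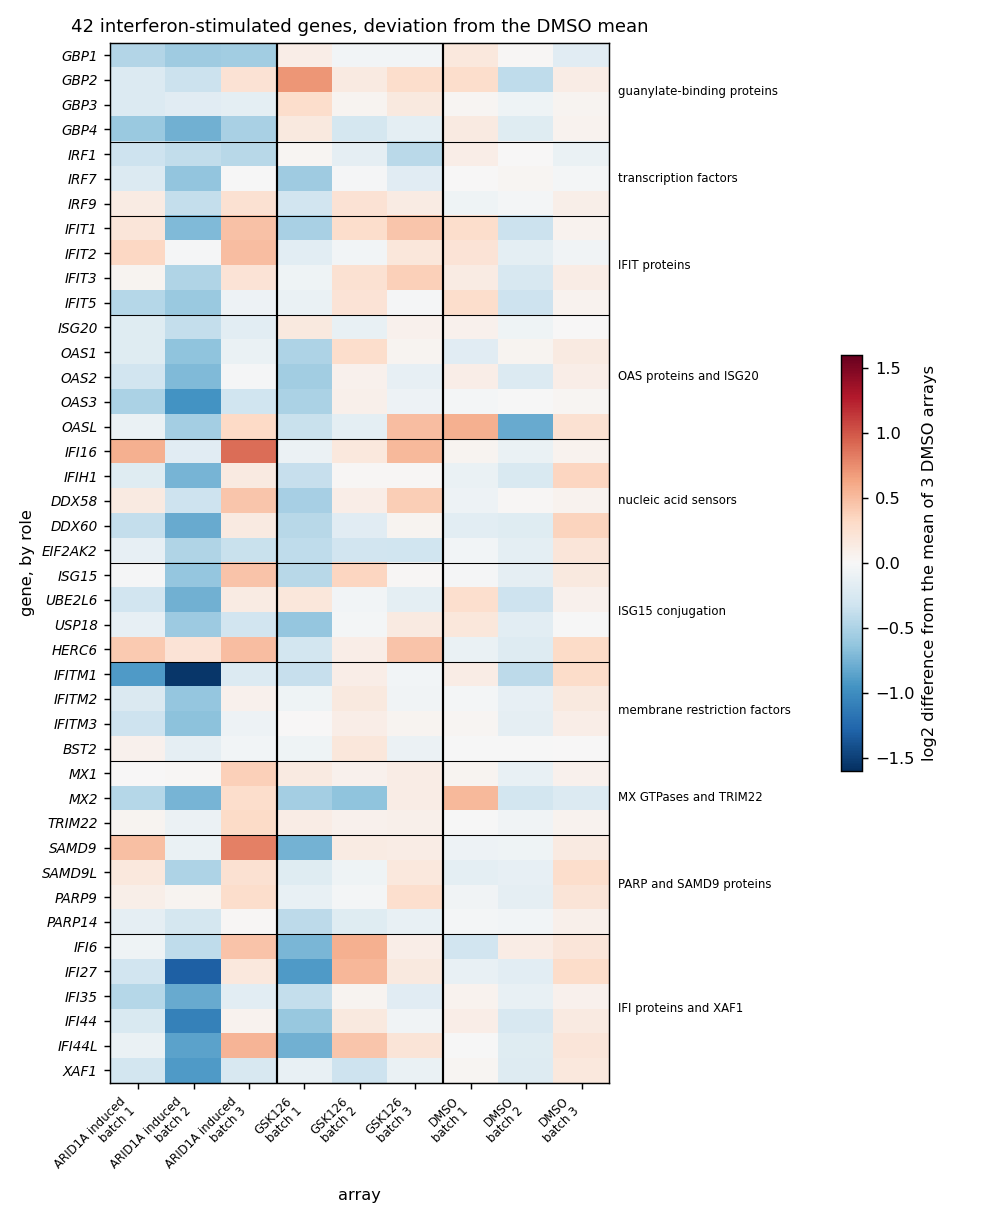
Log2 difference of each of 9 arrays (columns, 3 per group) from the mean of the DMSO arrays for 42 genes (rows, by role), with blue below and red above. GBP1 and GBP4 are blue on all 3 ARID1A-induced arrays, and 29 of the 42 genes are lowest of all 9 arrays in the ARID1A-induced array of batch 2.

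Many members varied widely between arrays of 1 group, and they did so together. IFI27, a mitochondrial protein and a widely used interferon marker, read 12.17, 11.16 and 12.64 in ARID1A-induced cells, 11.56, 13.01 and 12.62 with GSK126 and 12.35, 12.30 and 12.76 in DMSO. ISG15 read 14.40, 13.81 and 14.88 in ARID1A-induced cells, 13.98, 14.76 and 14.44 with GSK126 and 14.41, 14.28 and 14.58 in DMSO. In both genes batch 2 was lowest of the induced cells and highest of the GSK126 cells. IFIT1 read 13.86, 12.95 and 14.14 in ARID1A-induced cells, 13.15, 13.94 and 14.11 with GSK126 and 13.95, 13.32 and 13.72 in DMSO. IFI44L ran from 11.55 to 12.95 in ARID1A-induced cells, 11.65 to 12.86 with GSK126 and 12.22 to 12.61 in DMSO.

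The ARID1A-induced array of batch 2 was lowest of its group in 39 of 42 members and lowest of all 9 arrays in 29. The members' median on it lay 0.36 below its group's means (median deviation −0.36). On the GSK126 array of batch 1 the median deviation was −0.23, with 30 members lowest of their group, and on the DMSO array of batch 2 it was −0.15, with 32. ARID1A-induced replicate 3 had the highest median deviation, 0.29. Over all genes tested the same deviations ran from −0.01 to 0.01. The array with the most low members had 21752 probes with a detection p below 0.05 and a raw median of 331.285, both inside the range of the other arrays. The part of handling and culture in this spread was not tested.

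Over the 9 arrays GBP1, GBP3 and IRF1 had negative correlations with the other members. Those of GBP2 and GBP4, lowest in batch 2 of the ARID1A-induced and the DMSO cells, were weakly positive. None of these correlations was tested. Each member's deviations from its group means were set against the median deviation of the other 41 members over the 9 arrays. Pearson's r was above 0.8 for 22 members and had a median of 0.85, with 0.97 for IFI44 and IFIT3 and 0.94 for ISG15. It was −0.46 for IRF1, −0.26 for GBP1, −0.12 for GBP3, 0.16 for GBP4 and 0.34 for GBP2, and 0.31 for ISG20, a 3′ to 5′ exonuclease. These correlations describe 9 arrays that share normalisation, and the median itself is made of the members. On the ARID1A-induced array of batch 2 the median deviation was −0.04 over the 4 GBPs and IRF1 and −0.38 over the other 37 members, and on the GSK126 array of batch 1 it was 0.21 and −0.26. This grouping was made after the values were seen and has no test.

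**Figure D4:**
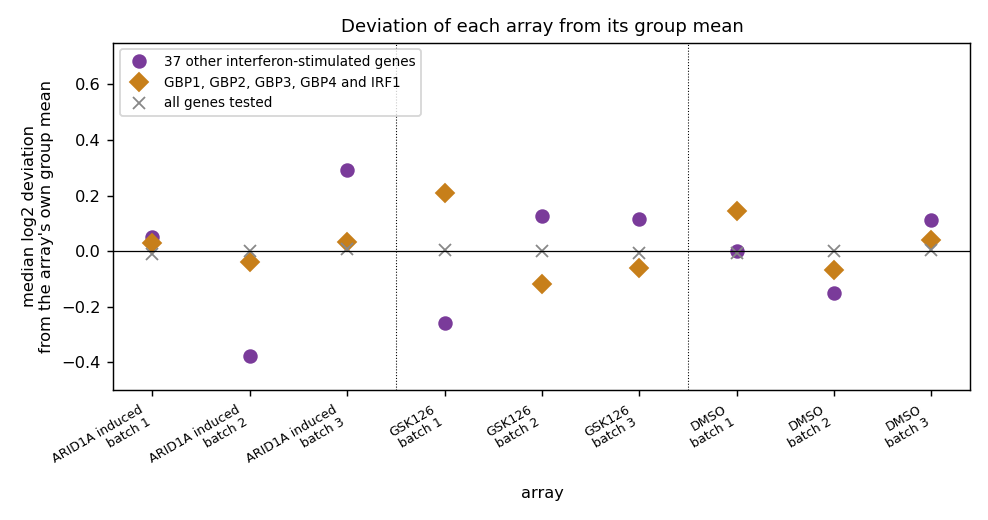
Median log2 deviation from the array's own group mean (vertical axis) on each of 9 arrays, for the 37 other members (circles), for GBP1, GBP2, GBP3, GBP4 and IRF1 (diamonds) and for all genes tested (crosses). Circles lie at −0.38 in ARID1A-induced batch 2 and −0.26 in GSK126 batch 1, where the diamonds lie at −0.04 and 0.21.

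The SD between arrays of a group, pooled over the 3 groups, had a median of 0.28 over the 42 members and 0.15 over all genes. Of the members, 33 lay above the median of all genes and 27 above their upper quartile. Among 3999 genes with mean levels in the members' interquartile range, 10.98 to 13.45, the median SD was 0.12. The SD was 0.63 for IFI27, 0.56 for IFI44L, 0.55 for OASL and 0.50 for IFIT1, and 0.12 for GBP1, 0.32 for GBP2, 0.08 for GBP3, 0.18 for GBP4 and 0.15 for IRF1.

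**Figure D5:**
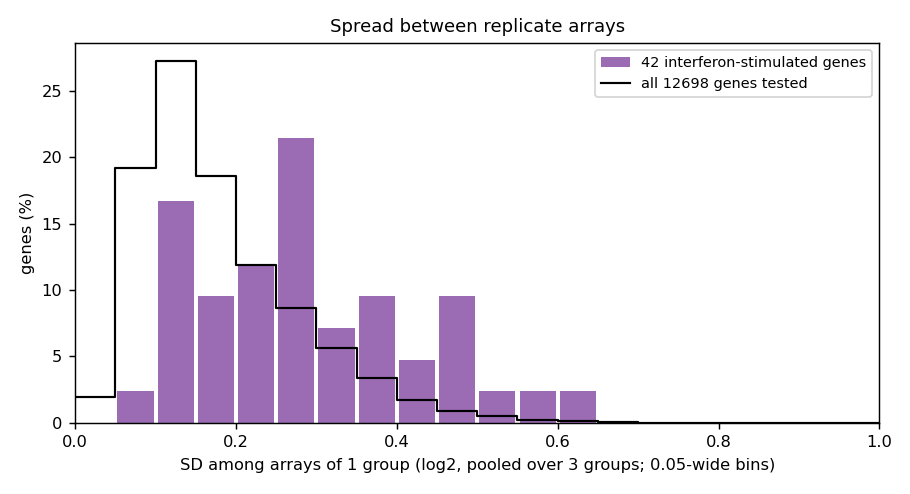
Share of genes (vertical axis, percent) by SD between arrays of 1 group on the log2 scale (horizontal axis, bins of 0.05) for 42 interferon-stimulated genes (bars) and all 12698 genes tested (line). The members' median is 0.28 and that of all genes 0.15.

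Genes around the pathway were read from further lists. Of 12 interferon genes, 1 was tested, IFNE, an interferon made by epithelia of the reproductive tract, which averaged 9.90 ± 0.30 in ARID1A-induced cells, 9.53 ± 0.67 with GSK126 and 9.82 ± 0.36 in DMSO (SD, n = 3 each). The other 11 were not above background on enough arrays. Of 10 receptor, JAK and STAT genes tested, 0 passed by limma after ARID1A induction, while 1, the receptor chain IFNAR1, was higher with the block (0.37, adjusted p = 0.0344, against 0.237 without it). The kinase JAK2 stood at −0.60 with GSK126 (limma adjusted p = 0.426) and the lambda receptor IFNLR1 at −0.35 (0.564). Of 15 inhibitors of the pathway, 0 passed without and 1 with the block (all genes with the block 2.28% lower and 3.82% higher), the phosphatase PTPN11 at −0.43 (SE 0.10, limma adjusted p = 0.0557, and 0.0429 with the block). With 1 gene called, these counts say nothing particular about either list. Of 15 genes of nucleic acid sensing 0 passed in either model, with IRF3 at −0.23 after ARID1A induction and DHX58, above background on 1 of 3 induced and 2 of 3 DMSO arrays, at −0.46.

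Among 32 other interferon-stimulated genes 0 were called after ARID1A induction and 1 with the block, IFI30, a lysosomal thiol reductase, at −0.41 (limma adjusted p = 0.0667, and 0.0412 with the block), where 2.28% of all genes were lower. Their median was −0.12, with 25 values negative. Of 15 MHC class I presentation genes 0 were called, TAP1, a peptide transporter that IRF1 induces, stood at −0.30 (limma adjusted p = 0.0871, and 0.0533 with the block) and TAP2 at −0.29 (0.235). In the chemokine list, 3 members were tested and CXCL10, a ligand of CXCR3 that interferon gamma induces, fell. It read 7.09, 7.25 and 7.10 in ARID1A-induced cells, 8.86, 7.83 and 8.34 with GSK126 and 8.70, 8.22 and 8.39 in DMSO. The induced arrays lay below all others, and the difference from DMSO was −1.29 (SE 0.23, limma adjusted p = 0.0246). With GSK126 it was higher than with induced ARID1A by 1.19 (SE 0.23, limma adjusted p = 0.0303). Without any 1 array its adjusted p ran from 0.00891 to 0.101 against DMSO, where 5 of 9 settings lost the call, and from 0.0131 to 0.108 between the treatments, where 6 did.

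With GSK126 against DMSO limma called 0 genes of these lists, with or without the block. The members of each list with the smallest p, beside JAK2 and IFNLR1, were the adaptor TICAM1 at −0.40 (limma adjusted p = 0.421) and DHX58 at −0.44, PTPN11 at −0.25 and the corepressor IRF2BP1 at 0.24, PML at −0.20 and NMI at −0.44, the chemokines CXCL11 at 0.25 and CCL5 at −0.12, and HLA-C at 0.24 and the immunoproteasome subunit PSMB8 at 0.23. IFNE stood at −0.29. Between GSK126 and induced ARID1A, limma called CXCL10 alone of these lists. CASP1, the inflammatory caspase, stood at 0.62 (limma adjusted p = 0.0913; 0.0508 in the block model) and IFI30 at 0.32 (0.149). TAP1 stood at 0.28, HLA-F at 0.38, IFNAR1 at −0.33, IL10RB at −0.17, the DNA-sensing adaptor STING1 at −0.44, IRF3 at 0.21, IRF2BP2 at −0.39, SOCS2 at 0.54 and IFNE at −0.36, and none passed.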

How the data were processed

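RNA of 9 OVISE samples was hybridised to an Illumina array of 47323 probes. The authors deposited a linear intensity for every probe on each array, from GenomeStudio per the submitters' processing notes, with no version given, and a detection p-value beside it. A second deposited table of the authors, quantile-normalised intensity, served as an alternative. Background was corrected with neqc (limma 3.58.1, R 4.3.3), offset 16, followed by quantile normalisation and log2. Symbols came from the platform annotation, brought up to date by Entrez identifier from RefSeq's table for GRCh38.p14, where DDX58 is RIGI. All 9 arrays entered 1 limma model with 3 group means (lmFit, eBayes, 6 residual degrees of freedom). Tests were two-sided at 0.05 after Benjamini-Hochberg correction across the 12698 genes, and all adjusted p-values come from limma.

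Replicate numbers mark the labelled batches. Residuals of arrays from 1 batch correlated at 0.102 to 0.326 (9 pairs), against −0.227 to 0.042 for the 18 pairs from different batches. The numbers were therefore taken as pairs in the block model and in differences within batches. The main model has no block and does not use this pairing. The block model, with 4 residual degrees of freedom, is given where it changes a call.

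Members and lists were chosen with earlier results of these data known. By rule, values per array were given in each comparison with DMSO for members called in either model, the GBPs, IRF1, IRF7 and IRF9. They were also given for the 4 largest differences each way among members with 1 sign in all 3 batches. In the comparison between the treatments, members chosen by this rule are given by their differences. IFI27, ISG15, IFIT1, IFI44L, SAMD9 and members quoted for a range or an SD were chosen after their values were seen. From other lists up to 4 genes called in either model were named, or, where there were none, the 2 with the smallest p. The model was also tested on simulated data, whose outcome is not given here, so that test lends nothing to these results. The alternatives changed the block, the arrays, background correction, normalisation, filter and adjustment, and 2 that join the block with a left-out array were added after seeing the data.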

Additional observations from a re-analysis of the deposited data

How the results depend on the processing

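After ARID1A induction, 2 members were called and both were lower. With batch as a block (replicate block) there were 4, all lower, where 2.28% of all genes were called lower, against 0.835% without it. Without a filter on detection there was 1, and there were 0 with only the 6 arrays compared or with adjustment over all kept probes. Leaving out 1 array gave 0 to 2 members and a median of −0.34 to −0.072. With the block and without ARID1A replicate 2, a setting added after seeing the data, 1 member was called and the median was −0.064. Between GSK126 and induced ARID1A, 1 member was called. The block gave 2, where 1.81% of all genes were called higher, against 0.953% without it. Equal medians gave 2, no background correction 3, the authors' normalised values 3 and adjustment over all kept probes 0. For the other settings of both comparisons the share of all genes called is not given here, so their counts do not describe the members alone. Leaving out 1 array gave 0 to 1 and a median of −0.074 to 0.32, and the block without ARID1A replicate 2 or without GSK126 replicate 1 gave 0. For GSK126 against DMSO the count was 0 in every setting run, and the median was −0.12 to 0.06 without 1 array. Settings with fewer arrays have fewer residual degrees of freedom; otherwise the cause was not tested.

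Of 820 values of single genes under these settings, 42 lost a call, 20 gained one and 0 called values changed direction, while 20 uncalled values, of 7 gene comparisons, changed sign. Each member rests on 3 arrays per group, and MX2 was not above background on every array. What kept members from passing was not tested.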
